A study of Homo sapiens with 6 samples.

Results

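The ATP-binding cassette (ABC) transporter family was examined in xenograft tumors of BxPC-3, an established human pancreatic adenocarcinoma cell line, grown in mice treated with deferasirox (DFX), an oral iron chelator, or with the vehicle. Its members were every gene whose name on the array was ABC followed by a subfamily letter from A to G and a number, which gave 46 of the 34423 gene names on the array and 71 of its 50599 probes. All 46 names matched a current RefSeq symbol. Female BALB/c (nu/nu) mice, aged 8 to 10 weeks when the experiments began, carried the tumors under the skin of the back, and treatment began at a tumor volume of 150 mm3. The DFX group comprised 3 tumors from mice given 200 mg/kg DFX in saline by gavage 3 times per week for 21 days, and the Control group comprised 3 tumors from mice given the vehicle. RNA of each tumor was labeled with a single dye and hybridized to a human 60-base oligonucleotide array. Nude mice lack mature T cells but keep their other host cells, so tumor RNA could also hold mouse transcripts. The model is 1 cell line.

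ABC proteins couple ATP hydrolysis to the movement of lipids, sterols, bile acids, peptides, drug conjugates and heme-related compounds across membranes. The A subfamily mainly handles lipids, the B and C subfamilies include the classical drug efflux pumps, the D subfamily serves peroxisomes and lysosomes, and the G subfamily moves sterols and drugs. ABCE1 and the F subfamily have the ATP-binding domains but no membrane domain and act on ribosomes. Several members bear on iron: ABCB10 serves heme synthesis, ABCB6 has been linked to porphyrin transport, and ABCE1 itself carries iron-sulfur clusters.

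What each value measures depends on where its probe sits, so the probes behind the main results are shown first, 5′ to 3′ on the transcript strand with positions on hg19 as in the array annotation. ABCB1, the P-glycoprotein drug pump, had 2 probes in its coding sequence that gave opposite readings. Its brightest probe (chr7:87229435-87229494, minus strand) reads near the start of the protein, and its other probe (chr7:87135313-87138603, minus strand, across an intron) reads the signature motif of an ATP-binding domain, whose codons are in capitals:
ABCB1 brightest probe: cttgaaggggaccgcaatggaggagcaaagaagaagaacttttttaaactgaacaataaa
ABCB1 other probe: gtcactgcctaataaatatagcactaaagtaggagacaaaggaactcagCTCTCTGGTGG

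The 4 genes that passed the unadjusted test described below were ABCA6 (chr17:67074849-67074908, minus strand), ABCC2 (chr10:101611322-101611381, plus strand), ABCC5 (chr3:183637742-183637801, minus strand) and ABCC6 (chr16:16315075-16315134, minus strand). The last 30 of the 60 bases of their brightest probes are given because each gene's call rests on these letters. Capitals mark the hexamer AATAAA, the letters of the common polyadenylation signal, searched on the transcript strand only. A match alone does not mark a signal, because the ABCB1 probes above hold the hexamer in coding sequence. The hexamer was found in 10 of the 71 ABC probes (14.1%) and in 7.88% of all probes:
ABCA6: tgggtattgtggaAATAAAactatataaac
ABCC2: agctggcattgagaatgtgaacagcacaaa
ABCC5: ggaagcaaaaatctgaaaatgtgAATAAAa
ABCC6: ttttatatgtgatatgtatttaccttagtg

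The ABCA9 probe (chr17:66971063-66971122, minus strand) has letters that are not particular to ABCA9: over 55 aligned bases it was 90.9% identical to another probe of the array on another chromosome. Its signals were 15.06, 14.99 and 14.83 in Control and 14.89, 14.53 and 15.31 in DFX tumors, on the log2 scale of normalized intensity used throughout, and they are not read as ABCA9 transcript here. The log2 fold change was -0.05, and -0.11 without Control replicate 3.

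The array detected most of the family. The brightest probe was well above background, by the scanner software's flag, on all 6 arrays for 29 of the 46 genes (63.0%), compared with 51.7% of all gene names. In a further 4 genes it was well above background on some arrays, and in 13 on none. By this flag, all of the ABCE1 and F members were detected in every tumor, as were 10 of 12 A members, 6 of 9 B members, 5 of 12 C members, 3 of 4 D members and 1 of 5 G members. These counts include the ABCA9 probe, which is not read as ABCA9 transcript, and ABCB1, whose probes gave opposite readings. Without the probes that nearly match those of other genes, 28 genes were counted. The 13 genes well above background on no array included ABCG2, the breast cancer resistance protein, ABCG5 and ABCG8, which together form the sterol pump of liver and intestine, ABCG4, ABCB5, ABCB11, the bile salt export pump of hepatocytes, ABCC8 and ABCC9, the sulfonylurea receptors, ABCC11, ABCC12, ABCC13, ABCD2 and ABCA8. Neither their presence nor their absence in the tumors follows from a probe at or near background.

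**Figure D1:**
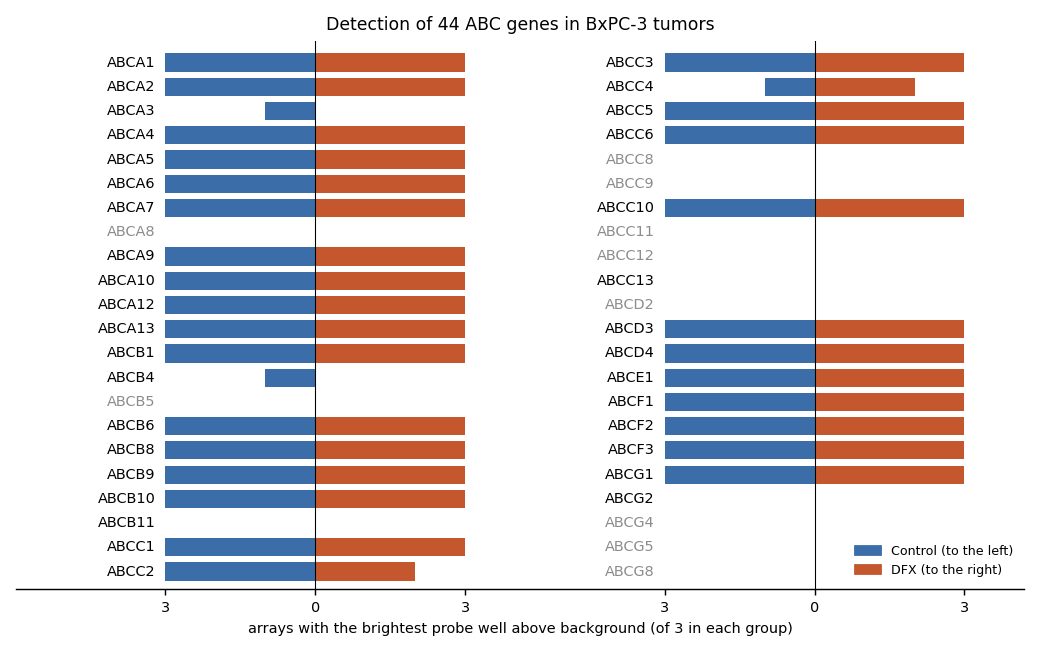
Number of arrays, of 3 in the Control group (blue, to the left) and 3 in the DFX group (orange, to the right), on which the brightest probe of each of 44 ABC genes was well above background. Grey names were not tested; 27 of these genes reach 3 on both sides and 13 have no bar.

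Differences were tested where a probe differed from its background on all 6 arrays, which left 53 ABC probes and 36 of the 46 genes; a gene stands for its brightest tested probe. The 10 genes not tested were ABCA8, ABCB5, ABCC8, ABCC9, ABCC11, ABCC12, ABCD2, ABCG4, ABCG5 and ABCG8, whose brightest probes read between 1.88 and 3.80 in every tumor. The tested ABCB11, ABCC13 and ABCG2 were well above background in no tumor, so their fitted values (0.95, 0.64 and -0.32 on the log2 scale) describe dim signals near background. Without Control replicate 3, ABCC13 was at 0.37 and ABCG2 at -0.01. The ABCC13 probes are annotated to non-coding RefSeq transcripts, although the naming rule counts the gene among the C members.

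Few members differed between the groups. At an unadjusted limma p under 0.05, 4 of the 36 tested genes (11.1%) were called, compared with 7.98% of all 22718 tested genes. ABCC6 and ABCA6 were higher in the DFX tumors (2 genes, beside 3.68% of all genes), and ABCC2 and ABCC5 were lower (2 genes, beside 4.29% of all genes). After Benjamini-Hochberg adjustment over the 31807 probes of the test, none was left. The lowest adjusted p among the ABC genes was 0.558, and the lowest on the array was 0.0675. The share of the family called therefore lay near that of all genes. In 11 of the 36 genes (30.6%) the 3 DFX values lay all above or all below the 3 Control values, 6 above and 5 below, compared with 15.4% of all genes. The exact permutation test of such a separation cannot give a two-sided p under 0.1. The count of genes so separated fell to 7 after 75th percentile scaling, median scaling or normexp background correction.

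The log2 fold changes of the family ran from -0.45 for ABCC2 to 1.16 for ABCC4, with 20 positive and 16 negative. Their median was 0.08, beside -0.01 over all tested genes, and their median size was 0.24, beside 0.15. All arrays lay on 1 slide, with the Control tumors in its first row and the DFX tumors in its second, so that slide row and treatment cannot be told apart.

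**Figure D2:**
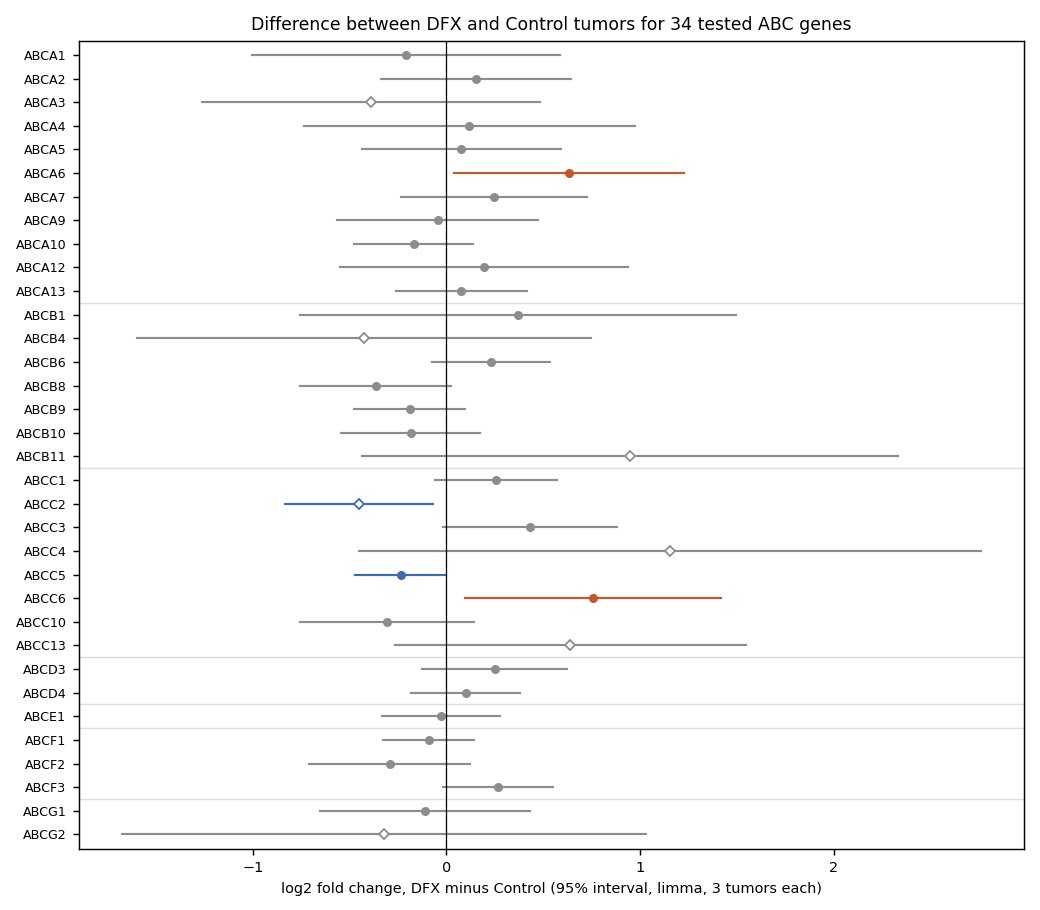
Log2 fold change (DFX minus Control) with its 95% interval from limma for 34 tested ABC genes, ordered by subfamily. Orange and blue mark the 4 genes called higher or lower at an unadjusted p under 0.05, and open diamonds mark genes not well above background on all 6 arrays; the intervals of the other genes include 0.

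Control replicate 3 stood apart within the family. It had the lowest value of the 6 tumors in 17 of the 36 genes (47.2%), against 21.3% of all tested genes, and no other tumor was lowest in more than 7. It had the highest value in 7 of the 36 genes (19.4%), against 25% of all tested genes. Over all tested genes it was the tumor most often lowest and also most often highest. The same tumor was low in a list of 16 intestinal epithelial genes, with a median of -1.27 relative to the Control mean over the 14 tested. The DFX tumors stood at 1.79, 1.91 and 1.25 on that list, and Control replicates 1 and 2 at 0.23 and 1.07. In bulk tumors, fewer cells of a type and less RNA per cell cannot be told apart, and the part of this list in the ABC values was not tested. Values without Control replicate 3 are given beside each member described below whose log2 fold change then turned or moved by over 1.5 times.

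Among the drug and conjugate pumps of the C subfamily, changes went in both directions. ABCC6, a transporter of liver and kidney whose loss causes pseudoxanthoma elasticum, read 8.79, 8.39 and 7.74 in Control and 9.19, 9.01 and 8.98 in DFX tumors. All DFX tumors were above all Control tumors, and Control replicate 3 was the lowest. The means were 8.30 ± 0.53 and 9.06 ± 0.11 (SD, n = 3 each), a log2 fold change of 0.76 with a standard error of 0.27, or 1.69-fold. The call was made by limma without adjustment (adjusted p = 0.57). Without Control replicate 3 the log2 fold change was 0.47, and the gene was still called. The call was lost when any of Control replicate 2 and the 3 DFX tumors was left out, at log2 fold changes of 0.80 without Control replicate 2 and of 0.69, 0.78 and 0.80 without DFX replicates 1, 2 and 3.

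ABCC6 had 4 tested probes, and all of them were higher in the DFX tumors, by 0.48 to 0.76 on the log2 scale. The 3 brightest lie together at the 5′ end of the gene (chr16:16315075-16315134, chr16:16315147-16315206 and chr16:16315425-16315484), and the fourth lies far downstream (chr16:16243855-16243914). The 3 brightest, among them the called probe, are annotated to another RefSeq transcript than the fourth. The downstream probe read 6.41, 6.30 and 4.93 in Control and 6.72, 6.36 and 6.60 in DFX tumors, so that its groups overlapped (log2 fold change 0.68, adjusted p = 0.677). On this probe Control replicate 3 alone stood far below the other tumors. The mean over the 4 probes gave a log2 fold change of 0.66, which was not called, and neither was the brightest probe in a linear model without moderation. The ABCC6 gene has near-identical pseudogene copies of its 5′ part on the same chromosome, so the signal of the 3 upstream probes is uncertain. The array's probe for the copy ABCC6P1 was well above background on no array (2.01 to 2.08).

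ABCC2, the apical pump for bilirubin and drug conjugates, read 5.04, 5.42 and 5.05 in Control and 4.75, 4.54 and 4.86 in DFX tumors. All DFX tumors were below all Control tumors. These are dim signals: the probe was well above background on all 3 Control arrays and on 2 DFX arrays, where the value of 4.54 in DFX replicate 2 fell below the lowest signal well above background on that array, 4.69. The log2 fold change was -0.45 with a standard error of 0.16 (0.73-fold, adjusted p = 0.558). It was -0.35 after 75th percentile scaling, -0.17 after normexp background correction and -0.11 on the raw mean signal, and in none of these was the gene called. Leaving out DFX replicate 1 (-0.47), DFX replicate 2 (-0.36) or Control replicate 2 (-0.33) also ended the call, as did replicate number as a block.

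ABCC5, a pump for cyclic nucleotides and related organic anions that has also been linked to heme export, was tightly measured. It read 11.58, 11.58 and 11.61 in Control and 11.34, 11.30 and 11.42 in DFX tumors. The Control tumors lay within 0.03 of each other, and every DFX tumor was lower. The means were 11.59 ± 0.02 and 11.35 ± 0.06 (SD, n = 3 each), a log2 fold change of -0.24 with a standard error of 0.10 (0.849-fold, adjusted p = 0.593). The call lay at the threshold: it was lost after 75th percentile scaling (-0.26) and with any 1 of the 6 tumors left out, at log2 fold changes of -0.27 to -0.21. Replicate number as a block also ended the call.

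The other ABCC5 probes also read lower in the DFX tumors. A probe at chr3:183705586-183705645 read 7.45, 7.19 and 7.31 in Control and 6.98, 6.82 and 6.81 in DFX tumors, with no overlap (log2 fold change -0.45, adjusted p = 0.514), and passed the unadjusted threshold. The third, at chr3:183701567-183701626, read 11.62, 11.11 and 11.84 against 10.95, 10.65 and 11.23, where Control replicate 2 lay below DFX replicate 3 (-0.58, adjusted p = 0.598). Both are annotated to another RefSeq transcript than the first probe, and lie at least 63825 bases from it. Thus 3 probes at 3 places along the gene gave the same direction.

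**Figure D3:**
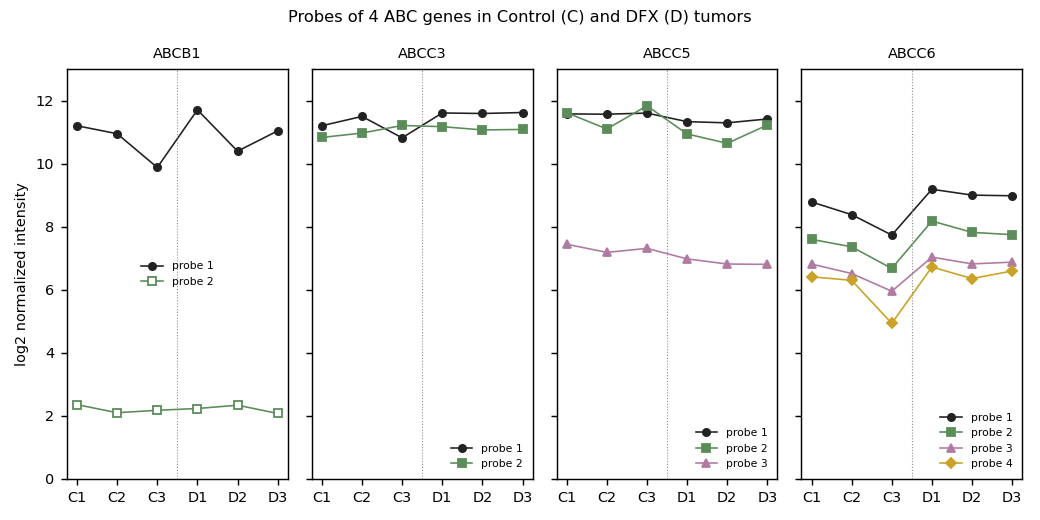
Log2 normalized intensity of each probe of ABCB1, ABCC3, ABCC5 and ABCC6 in the 6 tumors (C1 to C3 Control, D1 to D3 DFX; the dotted line parts the groups). Open symbols mark a probe not well above background on all arrays. The ABCC5 and ABCC6 probes keep their direction across probes, while those of ABCB1 stand at 9.88 to 11.71 and at 2.07 to 2.35.

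The remaining drug pumps of the C subfamily were not called. ABCC3, the basolateral pump for bile acid and glucuronide conjugates, read 11.21, 11.50 and 10.83 in Control and 11.61, 11.60 and 11.63 in DFX tumors, so that every DFX tumor was above every Control tumor. The DFX tumors spanned 0.03 and the Control tumors 0.67. The log2 fold change was 0.43 with a standard error of 0.18 (adjusted p = 0.603), and 0.26 without Control replicate 3. It was called in 8 of 21 alternatives, among them without Control replicate 2 (0.60), after 75th percentile scaling (0.41) and on the raw mean signal (0.42). A second ABCC3 probe gave 0.11 (adjusted p = 0.836), and its groups overlapped.

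ABCC1, the glutathione conjugate pump, read 9.57, 9.86 and 9.76 in Control and 9.94, 10.13 and 9.89 in DFX tumors. Its groups did not overlap, and the log2 fold change was 0.26 with a 95% interval of -0.06 to 0.57 (adjusted p = 0.64). ABCC4, a pump for cyclic nucleotides and prostaglandins, read 3.47, 4.85 and 4.14 in Control and 4.39, 6.67 and 4.86 in DFX tumors. It had the largest log2 fold change of the family, 1.16, but also a standard error of 0.66 (adjusted p = 0.67), and it was well above background on only 1 Control and 2 DFX arrays. Without DFX replicate 2 the log2 fold change was 0.47. ABCC10 read 7.54, 7.83 and 7.59 against 7.68, 7.11 and 7.24, with overlap (log2 fold change -0.31, adjusted p = 0.675). Without DFX replicate 1, the only DFX tumor within the Control range, it was -0.48, and the gene was called.

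ABCB1 gave no clear difference and a question about its level. The brightest probe read 11.21, 10.96 and 9.88 in Control and 11.71, 10.40 and 11.05 in DFX tumors, with overlap. The log2 fold change was 0.37 with a 95% interval of -0.75 to 1.5 (adjusted p = 0.836), and -0.03 without Control replicate 3. The other probe, spotted 10 times per array, read 2.07 to 2.35 and was well above background in no tumor. A level of ABCB1 mRNA can thus not be read from these probes together. Of the B members that act in bile formation, ABCB4, a phosphatidylcholine transporter, was well above background on 1 Control array alone (log2 fold change -0.43, adjusted p = 0.818, and -0.88 without Control replicate 3), and ABCB11 on none.

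Among the mitochondrial members, several of which bear on iron, none was called. ABCB10 read 8.97, 8.94 and 9.34 in Control and 8.77, 8.93 and 9.0 in DFX tumors, with overlap (log2 fold change -0.19, adjusted p = 0.746, and -0.06 without Control replicate 3). Its second probe gave -0.58 (adjusted p = 0.757), where Control replicate 3 alone stood at 8.10 and the other 5 tumors at 6.14 to 6.51.

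ABCB6 and ABCB8 separated the groups in opposite directions. ABCB6 read 11.29, 11.29 and 11.32 in Control and 11.54, 11.34 and 11.70 in DFX tumors. All DFX values were higher, DFX replicate 2 by the smallest margin, and the log2 fold change was 0.23 (adjusted p = 0.66); without DFX replicate 2 it was 0.32, and the gene was called. ABCB8, an inner-membrane protein linked to mitochondrial iron export, read 6.53, 6.60 and 7.0 against 6.46, 6.23 and 6.35. All DFX values were lower, with a log2 fold change of -0.37 (adjusted p = 0.61). Without Control replicate 3 it was -0.22. It was called without Control replicate 1 (-0.46), and when only probes detected by the scanner flag in all tumors were tested. A second ABCB8 probe gave -0.11 with overlap (adjusted p = 0.882).

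The soluble members of the family were not called. ABCE1, the iron-sulfur protein that splits ribosomes after translation, read 10.58, 10.69 and 10.90 in Control and 10.66, 10.78 and 10.64 in DFX tumors. Its log2 fold change was -0.03 with a 95% interval of -0.33 to 0.28, or 0.06 without Control replicate 3, and the groups overlapped. ABCF1, which acts in translation initiation, read 11.13, 11.24 and 11.19 against 11.13, 11.12 and 11.03. The groups did not overlap, but by less than 0.01, and the log2 fold change was -0.09 (adjusted p = 0.805). ABCF2 read 10.39, 10.64 and 10.82 against 10.44, 10.45 and 10.07, with overlap (-0.29, adjusted p = 0.673, and -0.19 without Control replicate 3). ABCF3 read 11.40, 11.48 and 11.24 against 11.57, 11.75 and 11.60, every DFX tumor above every Control tumor (0.27, adjusted p = 0.61). It was called in 5 of 21 alternatives, among them normexp background correction (0.28) and the raw mean signal (0.28).

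**Figure D4:**
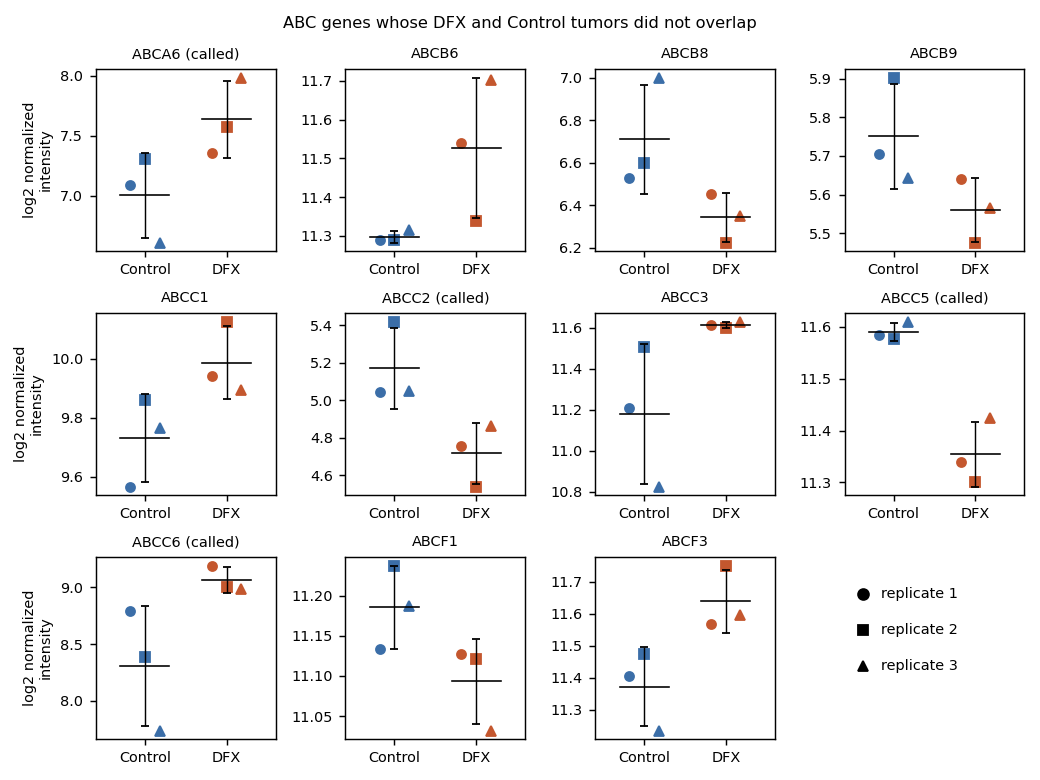
Log2 normalized intensity of the 11 ABC genes whose DFX and Control tumors did not overlap, 1 panel per gene with its own axis, which does not start at 0. Symbols are single tumors, and lines and bars are the mean ± SD of 3 tumors. ABCA6, ABCC2, ABCC5 and ABCC6 were called at an unadjusted p under 0.05, and Control replicate 3 is the lowest point for ABCA6, ABCC3, ABCC6 and ABCF3.

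In the lipid-handling A subfamily, ABCA6 was the only member called. ABCA6 belongs to a head-to-tail cluster of lipid transporter genes on chromosome 17 and read 7.09, 7.31 and 6.61 in Control and 7.35, 7.57 and 7.99 in DFX tumors. The groups did not overlap, with 0.05 between Control replicate 2 and DFX replicate 1. The means were 7.0 ± 0.36 and 7.64 ± 0.32 (SD, n = 3 each), a log2 fold change of 0.63 with a standard error of 0.24, or 1.55-fold (adjusted p = 0.58). The call was lost when Control replicate 1 (0.68), Control replicate 3 (0.44), DFX replicate 2 (0.67) or DFX replicate 3 (0.46) was left out. Array weights (0.41), a linear model without moderation, no filter on dim probes and replicate number as a block also ended the call. The log2 fold change was also smaller on the raw mean signal (0.41), where the gene was called.

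Its neighbours in the cluster gave other readings. ABCA5 had a log2 fold change of 0.08 (adjusted p = 0.933, and -0.03 without Control replicate 3) and ABCA10 of -0.17 (adjusted p = 0.731), while ABCA8 was at background and the ABCA9 probe was the one that matches other probes.

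The sterol exporters were not called. ABCA1, which loads cholesterol onto apolipoprotein A-I, read 9.14, 8.59 and 8.05 in Control and 8.23, 8.11 and 8.81 in DFX tumors, with overlap. The log2 fold change was -0.21 with a 95% interval of -1.0 to 0.59, or -0.48 without Control replicate 3, and a dimmer second probe gave -0.70 with no overlap (adjusted p = 0.627). ABCG1, which passes cholesterol to high-density lipoprotein, read 5.27, 5.58 and 5.94 against 5.55, 5.72 and 5.20 (-0.11, adjusted p = 0.905, and 0.06 without Control replicate 3). ABCA7 read 9.90, 9.64 and 9.21 against 9.77, 9.73 and 9.99 (0.24, adjusted p = 0.748), and 0.06 without Control replicate 3. ABCG5 read 2.54 to 2.96 and ABCG8 2.45 to 3.80 over the 6 tumors, all at background.

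The other A members overlapped between the groups. Their log2 fold changes were 0.15 for ABCA2, 0.12 for ABCA4, the retinoid transporter of the retina, 0.19 for ABCA12, the lipid transporter of keratinocytes, and 0.08 for ABCA13, and none was called (lowest adjusted p = 0.845). Without Control replicate 3 the first 3 turned, to -0.03, -0.20 and -0.06, and ABCA13 was at 0.01. ABCA3, the surfactant lipid transporter of the lung, was well above background in Control replicate 1 alone (log2 fold change -0.39, adjusted p = 0.773, and -0.72 without Control replicate 3).

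The peroxisomal and lysosomal members gave no call, and nearly all overlapped between the groups. ABCD3, which imports branched-chain and bile acid intermediates into peroxisomes, read 9.57, 9.47 and 9.24 in Control and 9.66, 9.88 and 9.48 in DFX tumors (log2 fold change 0.25, 95% interval -0.12 to 0.62, and 0.16 without Control replicate 3). ABCD4, the lysosomal cobalamin transporter, read 9.99, 9.86 and 10.04 against 10.12, 9.92 and 10.14 (0.10, 95% interval -0.18 to 0.38). The groups overlapped in both genes, and ABCD2 read 2.12 to 3.10, at background. ABCB9, a lysosomal peptide transporter, read 5.71, 5.90 and 5.64 against 5.64, 5.48 and 5.57. Its groups parted by less than 0.01 (log2 fold change -0.19, adjusted p = 0.688).

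Some members are neighbours on a chromosome and can be set side by side. ABCC1 (chr16:16236024-16236083) and ABCC6 lie next to each other on chromosome 16, and their log2 fold changes were 0.26 and 0.76. ABCC5 and ABCF3 (chr3:183911585-183911644) lie near each other on chromosome 3 and gave -0.24 and 0.27, both without overlap between the groups. Of these, ABCC5 and ABCC6 were called and ABCC1 and ABCF3 were not, and the difference between neighbours was not tested.

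Across the family, 12 genes had more than 1 tested probe, and in all 12 the probes of a gene gave the same sign. Probes of a gene read the same tumors, so this agreement does not replicate a difference. The share of such agreement over all genes is not given. The spread between probes of a gene could still be wide, as for ABCA1 (-0.70 and -0.21), ABCB10 (-0.58 and -0.19) and ABCC10 (-0.56 to -0.05). In 2 of the 12, ABCC5 and ABCC6, 2 probes each passed the unadjusted threshold.

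The ABC proteins whose names do not follow the family's pattern were set beside it. TAP1 and TAP2, which load peptides for antigen presentation, gave log2 fold changes of 0.05 (adjusted p = 0.909) and -0.01 (adjusted p = 0.989). CFTR, the chloride channel of ductal and intestinal epithelium, read 6.81, 6.59 and 3.68 in Control and 7.36, 6.91 and 7.17 in DFX tumors. All DFX tumors were higher, but Control replicate 3 alone stood below the others and was the only tumor not well above background (log2 fold change 1.45, standard error 0.83, adjusted p = 0.67). Without that tumor the difference was 0.45.

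**Figure D5:**
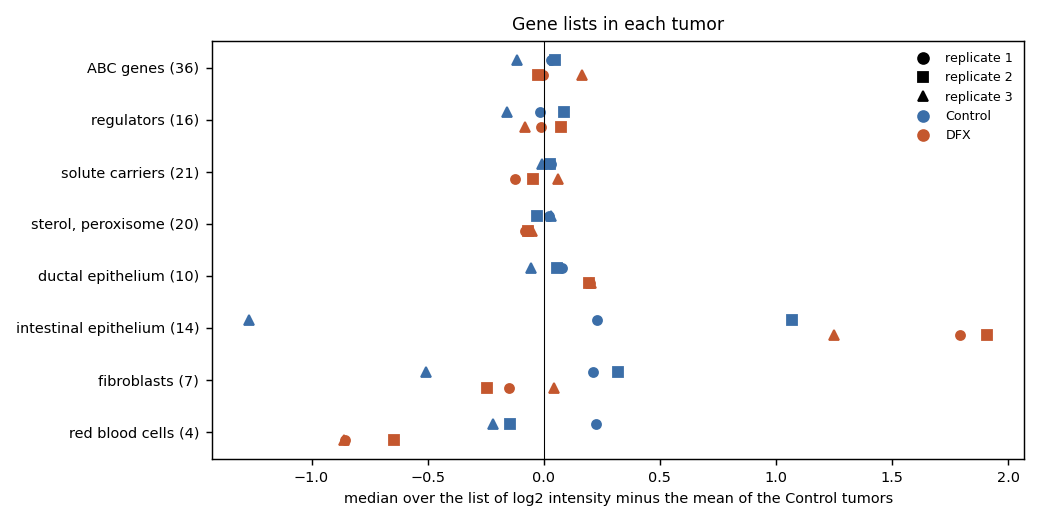
Median over the tested genes of each list (number in brackets) of the log2 intensity minus the mean of the Control tumors, 1 symbol per tumor; regulators, solute carriers and sterol or peroxisome genes are the related lists described among the further observations. Control tumors are blue and DFX tumors orange; the ABC genes lie between -0.12 and 0.17 in all tumors, whereas the intestinal list runs from -1.27 in Control replicate 3 to 1.91 in DFX replicate 2.

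Marker lists placed the tumors. Their calls stand beside 3.68% of all tested genes called higher and 4.29% called lower. All 10 pancreatic ductal epithelial markers were well above background in every tumor, with 3 called higher and none lower in DFX tumors. Of the 14 tested intestinal markers, 9 were called higher and none lower, with a median log2 fold change of 1.62. The summed log2 level of all 16 intestinal genes was 15.31 to 17.57 in the Control and 17.40 to 17.66 in the DFX tumors. TFF3, which was not called, alone read 17.52, 17.23 and 15.20 in Control and 17.57, 17.29 and 17.52 in DFX tumors. Among the 4 tested red blood cell markers, 2 were called lower. The summed level of all 5 listed was 12.71 to 12.96 in the Control and 11.57 to 11.66 in the DFX tumors. HBA2, 1 of the 2 called, alone read 12.44, 12.67 and 12.27 in Control and 10.47, 10.53 and 10.59 in DFX tumors. Of 7 tested fibroblast markers, 1 was called in each direction. Endothelial and leukocyte markers had 1 and 0 calls among 4 tested each, and of the 4 liver markers ALB, APOB and TTR were at background in all tumors. The fourth, SERPINA1, was well above background in every tumor and called higher (log2 fold change 0.50). The part of these differences in the ABC values was not tested.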

How the data were processed

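The authors deposited 1 scanner file per tumor holding linear probe intensities, their processed signal after background subtraction, each spot's p-value against background, and flags. They also deposited a table of normalized intensity values, which served as an alternative. The file headers name Agilent Feature Extraction 10.7.1.1, and the methods name 9.5.1.1. The processed signal of 58717 non-control spots was log2-transformed and quantile-normalized, 1398 spot values flagged as outliers were left out, and spots were averaged per probe. The 31807 probes whose background p-value was under 0.05 in every tumor entered a two-sided test by limma 3.58.1 (R 4.3.3; lmFit, then eBayes), with Benjamini-Hochberg adjustment over all of them. A gene was represented by its brightest tested probe and called at an unadjusted p under 0.05. The methods name no test for the arrays; a Kruskal-Wallis H test is named for in vivo work.

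Named genes followed a rule: every member at least once, apart from 2 that are counted but not reported here by name, and each tumor's values for called members, members without overlap and members of set functions. Near matches were sought with blastn 2.17.0 (at least 40 aligned bases at 75% identity or more). The members and all lists were chosen with earlier results of these data known, so no set test was run. The procedure was tested on simulated data. Alternatives covered scaling, background correction, filters, tests, weights, the probe rule and each tumor left out. Labels do not say that same-numbered tumors belong together. Whether the tumors of a group differ only by biology is not stated, and p-values measure the spread between these tumors. Precision is limited by having 6 arrays.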

Additional observations from a re-analysis of the deposited data

How the results depend on the processing

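Every alternative kept the direction of ABCA6, ABCC2, ABCC5 and ABCC6, which were called in 13 of 21, 13 of 20, 13 of 21 and 15 of 21 alternatives. Of the 36 genes, none changed its direction with a call. The count of called ABC genes, 4 as reported, was 11 under the Kruskal-Wallis H test, whose approximate p passes whenever 3 tumors separate from 3 and which called 15.4% of all genes, and 1 to 3 with 1 tumor left out, fewest without DFX replicate 2. The count called lower, 2 as reported, was 0 after 75th percentile scaling, 1 after normexp correction, 1 on the raw mean signal, 5 under the Kruskal-Wallis test and 0 to 2 with 1 tumor left out. Groups without overlap numbered 11 as reported, and 7 after 75th percentile scaling, median scaling or normexp correction. They numbered 8 on the raw mean signal and 9 on the authors' normalized values or the mean of all probes. Without 1 tumor they were 12 to 16, as fewer values have to separate. The share of all genes without overlap, 15.4% as reported, is not given for these settings. The median log2 fold change, 0.08, was -0.01 after median scaling, which moved the median of all genes to -0.10, and -0.02 to 0.12 with 1 tumor left out, lowest without Control replicate 3. Over all genes, 53.8% of the calls were lower, against 38.7% with 75th percentile scaling and 68.0% with scaling to the median. With the replicate block, 3 ABC genes were called, ABCC4, ABCC6 and ABCC13, and 0 lower, beside 7.25% of all genes. Same-numbered tumors deviated from their group means with correlations of 0.0274, 0.0267 and 0.0158, so the numbers were not taken to pair them. Leaving out the probes with near matches, an alternative chosen after seeing the data, left 4 called. Detection counts were 29 to 36 under the other criteria and 28 without those probes. Apart from the tests, the cause of these shifts was not tested. Dim signals limit ABCC2, ABCC4, ABCA3 and ABCB4.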

Other observations

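The solute carriers that bring drugs and bile acids into cells, the counterpart of the ABC pumps, were measured by 24 genes, of which 21 were tested. In the DFX tumors 2 were called higher and 2 lower, beside 3.68% and 4.29% of all tested genes. The median log2 fold change was -0.12. SLCO2B1, an organic anion uptake transporter of intestine and liver, read 4.59, 5.98 and 3.04 in Control and 7.64, 7.18 and 6.93 in DFX tumors. It was not well above background in Control replicate 3, so that the low end of the Control values is uncertain. All DFX tumors were higher (log2 fold change 2.71, standard error 0.72, adjusted p = 0.514). SLC15A1, the intestinal peptide transporter, read 5.24, 7.27 and 6.34 against 7.06, 8.41 and 7.89, with overlap (1.5, adjusted p = 0.58). SLCO4C1 read 6.59, 5.87 and 5.99 against 4.95, 5.34 and 5.85, lower in each DFX tumor (-0.77, adjusted p = 0.58). SLCO3A1, also called lower, read 8.35, 8.57 and 8.45 against 8.26, 8.16 and 7.81, without overlap (-0.38, adjusted p = 0.589).

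Among 19 regulators of ABC genes, 16 were tested, and 2 were called higher and none lower, beside 3.68% and 4.29% of all tested genes. NR1I2, the xenobiotic receptor PXR, read 2.23, 3.79 and 2.06 in Control, well above background in none, and 5.10, 5.25 and 4.71 in DFX tumors, well above background in all. The fitted log2 fold change was 2.32 (adjusted p = 0.513), which rests on Control signals not well above background. Set against the lowest signal well above background on each Control array, averaged over these arrays, the mean in DFX tumors was 2.08-fold higher. SREBF1, which drives lipid synthesis, gave a log2 fold change of 0.71 with overlap (adjusted p = 0.58). The xenobiotic receptor AHR gave 0.05 (adjusted p = 0.924).

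Of all tested genes, 7.98% were called. Of 20 partners of sterol export and peroxisomal oxidation, all tested, SCARB1, a receptor for high-density lipoprotein, was the only one called. It read 11.91, 12.42 and 12.41 in Control and 12.79, 12.75 and 12.68 in DFX tumors, without overlap (log2 fold change 0.49, adjusted p = 0.557). SLCO2B1, NR1I2 and the intestinal marker list were lowest in Control replicate 3, and SLC15A1, whose groups overlapped, in Control replicate 1. SLCO3A1 and SLCO4C1 were lowest in DFX tumors. The relation of these genes and this list to the ABC values was not tested.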
